A study of Bos taurus with 6 samples.

Results

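RNA polymerase I and ribosome biogenesis genes were followed in bovine primordial follicles (PMF) collected at T0 or after 16 h of culture (T16). The group is a list of 36 genes chosen by name for their function, namely polymerase I subunits and their initiation factors, the proteins of small nucleolar ribonucleoproteins (snoRNP), abundant nucleolar proteins and assembly factors of both ribosomal subunits. All 36 were found among the 23704 genes to which the transcripts could be summed, all were counted in every library, with at least 116 counts each, and all were among the 14639 genes tested. For 10 of them (POLR1B, POLR1G, UBTF, NOP58, GAR1, NOP14, RRP12, UTP4, UTP20 and HEATR1) the deposited files held fewer transcripts than the gene table, whose build is later. The list has no threshold of level or change, but it was drawn up with the T16 and T0 levels of these libraries known. Counts over its members are therefore given as descriptions, beside the same counts over all genes tested.

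Each sample was a pool of isolated PMF, an oocyte with its flat pregranulosa cells, and 3 libraries per group were labelled as replicates. T0 follicles were retrieved after collection and T16 follicles after 16 h of culture, with no other treatment, genotype or agent in the labels. The study's methods describe mechanical isolation from cortex of Holstein Friesian cows in the second year of life, and a recovery incubation with insulin, transferrin, selenium and FSH before follicles were lysed. The culture itself is not described in the sources used here. Total estimated counts ran from 22174653 to 36703016 per library. The cDNA was made from total RNA with a low-input polyadenylated RNA kit, and ribosomal RNA itself was not analysed here.

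Ribosome production starts in the nucleolus, where polymerase I transcribes the precursor of the large ribosomal RNAs from repeated genes. UBTF keeps these repeats open and RRN3 links the polymerase to the initiation complex in response to growth signals. Box C/D and box H/ACA snoRNP then methylate and pseudouridylate the precursor, and many assembly factors fold, cut and export the subunits. In the ovary, oocyte growth after primordial follicle activation goes along with an enlarging nucleolus and accumulation of ribosomes.

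Markers of the oocyte and of granulosa cells were detected, but the libraries differed widely in the level of oocyte markers. All 17 oocyte markers were detected in every library, and of 12 granulosa cell markers only NR5A2 was at 0, in T0 replicate 3. The summed level of the oocyte markers was 565, 2261 and 3196 TPM (a level per transcript length, scaled to 1 fixed sum in every library) in T0 replicates 1, 2 and 3. It was 2342, 87.9 and 845 TPM in the T16 replicates, so T0 replicate 1 and T16 replicate 2 were the lowest of their groups. In T16 replicate 2, KIT alone held 39.5 TPM of this sum. Markers such as BMP15 (0.533 TPM), DDX4 (0.627 TPM) and DPPA3 (0.0574 TPM) were near 0 there. The granulosa markers summed to between 1472 and 10123 TPM at T0 and between 937 and 9029 TPM at T16. The highest sums were those of T0 replicate 1 and T16 replicate 2, where the keratin gene KRT8 alone held 7671 and 6286 TPM. These sums therefore follow KRT8 more than the other granulosa markers. Of the granulosa markers, FST lay above the T0 libraries in every T16 library and GATM, FOXL2 and WNT6 lay below. In normalised counts 0 of the 17 oocyte markers lay to either side, and in TPM KIT lay below. The log2 fold change (T16 over T0) was positive for 2 of the 17 oocyte markers (median -0.67) and 3 of the 12 granulosa markers (median -0.68). Over all genes tested, 46.6% were positive (median -0.08). Stromal markers ranged from 1068 to 2443 TPM at T0 and from 274 to 1656 TPM at T16, with TCF21 or OGN at 0 in some libraries and DCN the only 1 of 8 below. Smooth muscle and pericyte markers ranged from 115 to 447 TPM at T0 and from 31.9 to 113 TPM at T16, with 2 of the 7 tested, ACTA2 and MYH11, below and at 0 in T16 replicate 1. Endothelial markers ranged from 22.6 to 393 TPM at T0 and from 32.8 to 53.7 TPM at T16. PECAM1, CDH5 and KDR were at 0 in 2 libraries each, and EGFL7 in T0 replicate 3 and all T16 libraries. CLDN5 alone held 382, 228 and 13.6 TPM of these sums in T0 replicates 1, 2 and 3. It held 4.36, 31.3 and 16.9 TPM in the T16 replicates, so its groups overlapped. ESAM was the only 1 of the 7 tested above. Immune markers stayed under 60 TPM in every library, with PTPRC and CD68 at 0 in 2 libraries each, CD14 and AIF1 in 5 each, CD3E in 4 and CD52 in 2. Only 4 of the 8 passed the filter on low counts, and of these 1, CD68, lay above. Theca markers ranged from 519 to 2649 TPM at T0 and from 43.3 to 848 TPM at T16, with CYP17A1 at 0 in 2 libraries and INSL3 the only 1 of 5 below. The part of these differences in the results that follow was not tested. In pools of whole follicles, fewer cells of a type and less RNA per cell cannot be told apart.

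The 36 genes held more of the transcript pool in the cultured follicles. They summed to 2985, 2623 and 2978 TPM in T0 replicates 1, 2 and 3 and to 7987, 5471 and 6305 TPM in the T16 replicates. Every T16 library was above every T0 library, and the mean sum at T16 was 2.3 times that at T0. Within T0 the highest sum was 1.14 times the lowest, and the sum of the oocyte markers differed by a factor of 5.66 between the same libraries. Within T16 these factors were 1.46 and 26.6. Some single members varied more within T0 than their sum, as NOP14 did, from 15.5 to 56.5 TPM. The part of oocyte content in these levels was not tested.

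**Figure D1:**
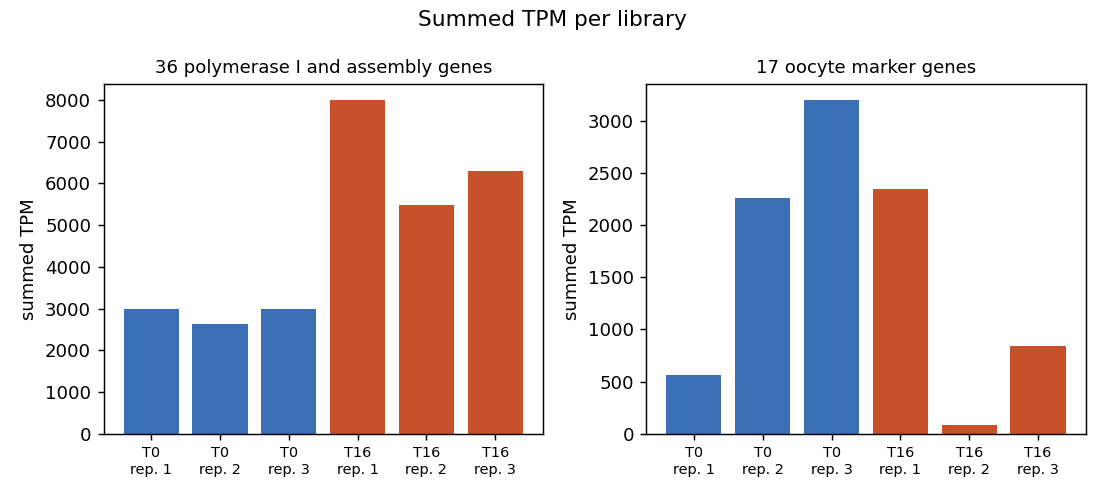
Summed TPM in each of the 6 libraries, for the 36 polymerase I and assembly genes (left) and for the 17 oocyte marker genes (right); blue bars are T0 and red bars T16. The left sums are at 5471 TPM or more in all T16 libraries and at 2985 TPM or less in all T0 libraries, whereas the oocyte sums overlap, with the lowest in T16 replicate 2.

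Of the 36 genes, 30 had every T16 library above every T0 library in log2 CPM (normalised counts as a share of the library total), and none had every T16 library below. Among all genes tested, 13.2% lay above in this way and 10.6% below. In TPM, 28 of the 36 lay above and 0 below, beside 11.5% and 11.6% of all genes. The estimated log2 fold change (T16 over T0) was positive for 35 of the 36 genes, beside 46.6% of all genes, and its median was 1.3, beside a median of -0.08 over all genes tested. The sign of UBTF, at 0.03, was not stable, being negative with DESeq2 size factors. Levels in mean TPM were at least 2 times as high at T16 for 23 genes, beside 10.8% of all genes tested. The 6 genes whose groups overlapped in log2 CPM were the polymerase subunits POLR1A, POLR1D and POLR1H, the initiation factor UBTF, the snoRNP gene NOP10 and the assembly factor BOP1.

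No single member passed the test across all genes. By edgeR's quasi-likelihood test, with p-values adjusted over the 14639 genes (FDR), 0 of the 36 were past 0.05, where 5 genes of all (0.0342%) were called higher and 1 (0.00683%) lower. The lowest adjusted p among the members was 0.0838 for POLR1G, 6 members were under 0.1, and the highest was 0.988 for UBTF. At an unadjusted p under 0.05, 28 members were higher and 0 lower, beside 8.61% and 5.14% of all genes. DESeq2, run as the alternative tool, called 18 of the 36 higher and 0 lower at the same FDR, beside 4.06% and 2.96% of all genes. These 18 were POLR1C, POLR1F and POLR1G of the polymerase, RRN3, the snoRNP genes NOP56, NOP58, DKC1 and GAR1, the nucleolar genes NOLC1 and GNL3, the small subunit factors WDR43, RRP9 and BYSL, and all large subunit factors but BOP1. These p-values measure the spread between 3 pools per group, and the sources used here do not say whether the pools came from separate animals.

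**Figure D2:**
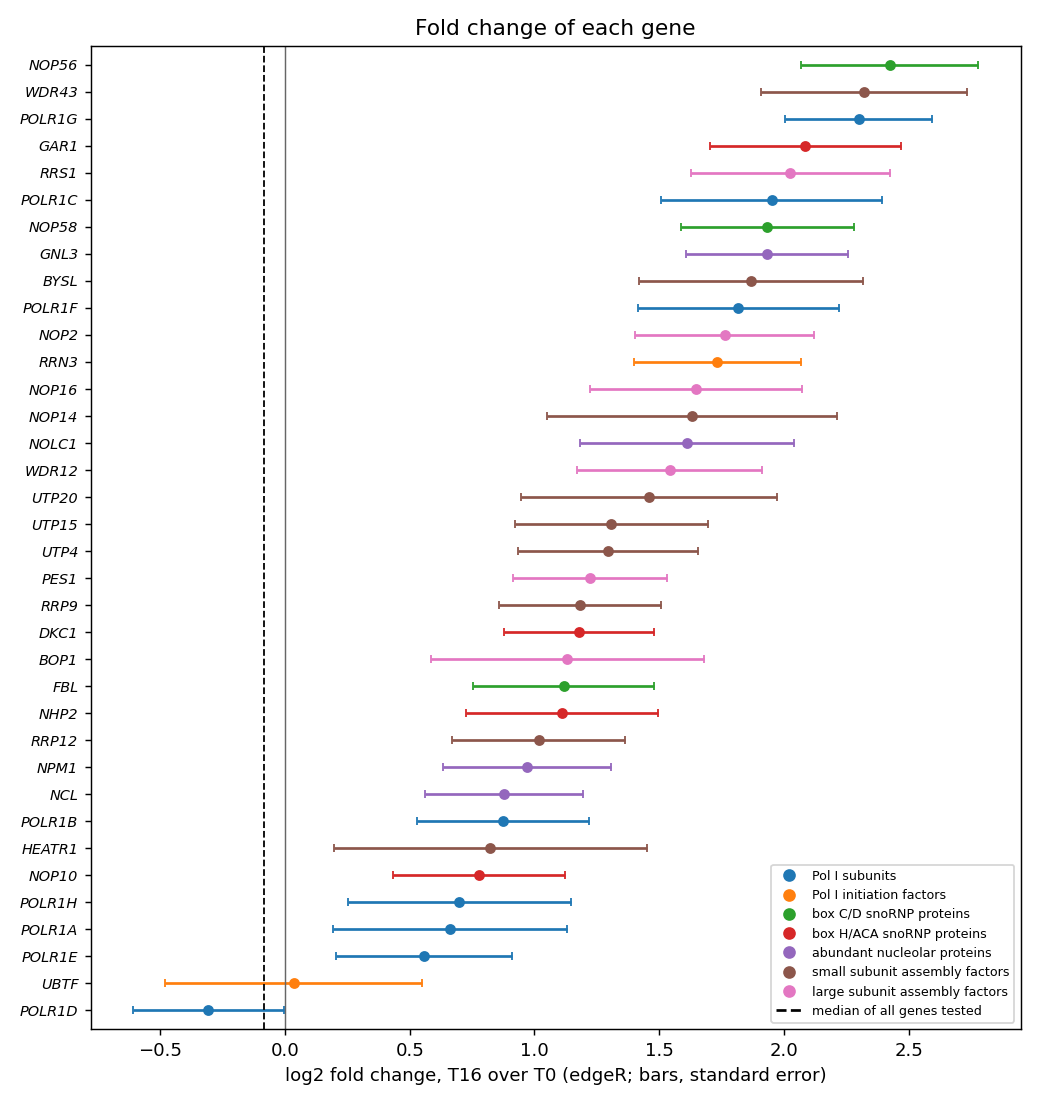
Log2 fold change of each of the 36 genes, T16 over T0, from the edgeR fit. Points are estimates and bars their standard error (SE), derived from the estimate and the F statistic of its test. Colours give the role of the gene, and the dashed line the median of all genes tested (-0.08). NOP56 has the highest estimate (2.42), UBTF lies at 0.03 and is negative with DESeq2 size factors, and POLR1D (-0.31) is the only negative one here.

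The subunits of polymerase I differed among themselves. POLR1G, POLR1F and POLR1C were 3 to 5 times as high at T16, POLR1B, POLR1A, POLR1E and POLR1H were less than 2 times as high in mean TPM, and POLR1D had the lower mean at T16. The median log2 fold change of the 8 subunits was 0.79, with 5 of 8 above in log2 CPM and 4 of 8 in TPM, beside 13.2% and 11.5% of all genes tested.

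POLR1A, the largest and catalytic subunit, was the least abundant of the 8, with 14.7, 7.35 and 7.79 TPM in T0 replicates 1, 2 and 3 and 15.4, 21.3 and 9.57 TPM in the T16 replicates. Its groups overlapped, and its estimate of 0.66 (log2 fold change, SE 0.47) moved to 1.20 once T0 replicate 1, its highest T0 library, was left out. The second large subunit, POLR1B, had 35.8, 25.2 and 25.9 TPM at T0 and 43.3, 57.1 and 48.8 TPM at T16. Every T16 value of POLR1B was above every T0 value, and the log2 fold change was 0.87 (SE 0.34, edgeR adjusted p = 0.320).

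POLR1C and POLR1D form the assembly platform that polymerase I shares with polymerase III. POLR1C had 58.2, 35 and 30.7 TPM at T0 and 158, 119 and 173 TPM at T16, which do not overlap (log2 fold change 1.95, SE 0.44, edgeR adjusted p = 0.126). POLR1D, the most abundant subunit at T0, had 165, 245 and 266 TPM at T0 and 184, 122 and 172 TPM at T16. Its lowest value was in T16 replicate 2 and its highest in T0 replicate 3, the groups overlapped, and the log2 fold change was -0.31 (SE 0.30, edgeR adjusted p = 0.736). Within a library, the ratio of POLR1C to POLR1D in TPM was 0.352, 0.143 and 0.115 at T0 and 0.858, 0.980 and 1.00 at T16, close to parity in all cultured pools. This and the other ratios between partner genes are descriptions with no test, since the pairs were chosen with the levels known. The 769-base transcript of POLR1D held between 52.2% and 69.6% of the gene's TPM in the 6 libraries, and the 1277-base transcript the rest, with overlapping shares at T0 and T16.

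POLR1E and POLR1G are the partners of a dimer that sits on the core enzyme and takes part in initiation and elongation. POLR1G differed little among the T0 libraries, with 31.2, 32.7 and 34.0 TPM, and had 189, 130.3 and 129.5 TPM at T16. This gave a log2 fold change of 2.30 (SE 0.29, edgeR adjusted p = 0.0838), between 2.09 and 2.42 when any 1 library was left out. POLR1E had 42.0, 51.9 and 51.5 TPM at T0 and 98.8, 50.9 and 50.4 TPM at T16. Only T16 replicate 1 stood clear of the T0 libraries in TPM, and without it the log2 fold change went from 0.56 to 0.16. The ratio of POLR1G to POLR1E was 0.743, 0.629 and 0.660 in the T0 libraries and 1.91, 2.56 and 2.57 in the T16 libraries.

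POLR1F belongs to the stalk of the enzyme, which faces the initiation factor RRN3. It had 23.9, 32.3 and 38.8 TPM at T0 and 153, 65.7 and 88.8 TPM at T16, a log2 fold change of 1.82 (SE 0.40, edgeR adjusted p = 0.122). POLR1H, a small zinc-binding subunit with a role in RNA cleavage, had 74.6, 95 and 186 TPM at T0 and 132, 139 and 179.9 TPM at T16. T0 replicate 3 was the highest of the 6 libraries for POLR1H, so its groups overlapped, and without that library the log2 fold change went from 0.70 to 1.11. Its 807-base transcript held 75.3 to 87.2% of the gene's TPM at T0 and 52.5 to 70.9% at T16, with lower shares in all cultured pools.

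The 2 initiation factors differed from each other. RRN3 had 28.0, 24.3 and 27.6 TPM at T0 and 118, 82.9 and 53.1 TPM at T16, which do not overlap (log2 fold change 1.73, SE 0.33, edgeR adjusted p = 0.104). UBTF had 53.1, 45.8 and 32.7 TPM at T0 and 21.1, 76.9 and 31.8 TPM at T16, so that the cultured pools held both the lowest and the highest value. Its log2 fold change of 0.03 (SE 0.51) ran from -0.52 without T16 replicate 2 to 0.34 without T16 replicate 1, and took a negative sign with DESeq2 size factors (-0.02). T16 replicate 2, the highest for UBTF, was also the library lowest in oocyte markers, and the part of cell makeup in this was not tested. UBTF counts were spread over 8 transcripts, none with more than 37.0% of the gene's TPM in any library.

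**Figure D3:**
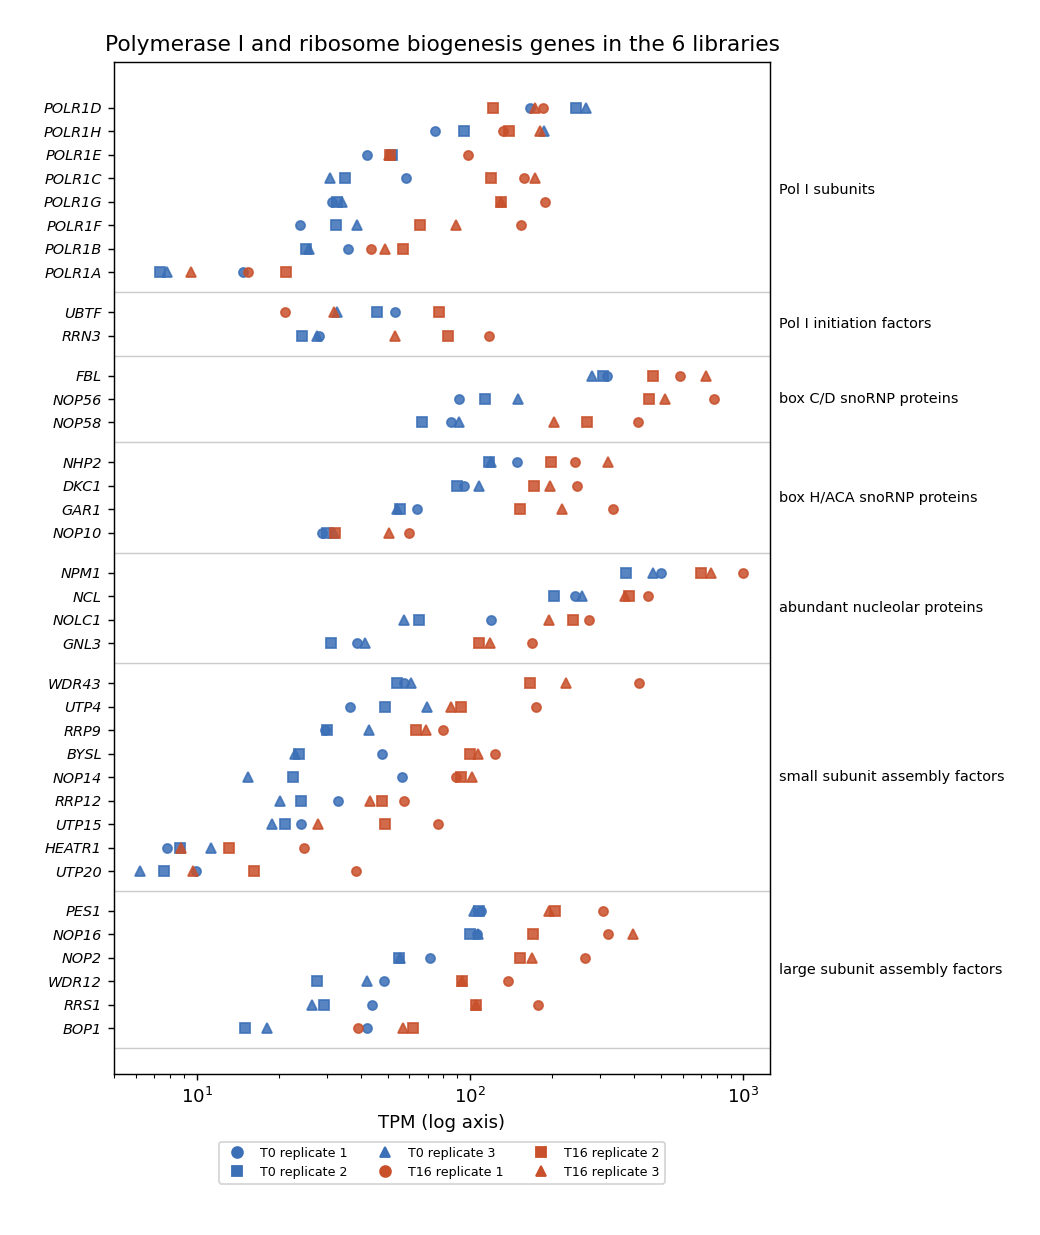
TPM of the 36 genes in each library, on a log axis, grouped by role and ordered by the mean at T0; blue marks are T0, red marks T16, and the shape gives the replicate number. Red marks lie to the right of blue marks for 28 genes, and the groups overlap for POLR1A, POLR1D, POLR1E, POLR1H, UBTF, UTP20, HEATR1 and BOP1.

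FBL, NOP56 and NOP58, core proteins of box C/D snoRNP, were higher in every cultured pool. FBL is the methyltransferase, and NOP56 and NOP58 are the paired scaffold proteins that hold it on the guide RNA. FBL had 317, 308 and 279.6 TPM at T0 and 586, 469.5 and 732 TPM at T16, a log2 fold change of 1.12 (SE 0.36, edgeR adjusted p = 0.23). NOP56 had 91.4, 114 and 150.1 TPM at T0 and 782, 452 and 516 TPM at T16, the largest estimate of the 36 genes (2.42, SE 0.35, edgeR adjusted p = 0.0872). NOP58 had 85.4, 66.6 and 91.0 TPM at T0 and 412, 269 and 203 TPM at T16 (log2 fold change 1.93, SE 0.35). NOP56 lay closer to FBL in TPM in all cultured pools, with a ratio of NOP56 to FBL of 0.289, 0.369 and 0.537 at T0 and 1.33, 0.964 and 0.705 at T16. The ratio of NOP58 to FBL overlapped between the groups, with 0.278 in T16 replicate 3 beside 0.325 in T0 replicate 3. SNU13, the remaining core protein of this particle and no member of the list, overlapped between the groups in log2 CPM (log2 fold change 0.36). It was named after its values were seen.

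The 4 proteins of box H/ACA snoRNP, in which DKC1 is the pseudouridine synthase, were also higher in mean TPM at T16, by different amounts. DKC1 had 95.5, 89.8 and 108 TPM at T0 and 246, 172 and 196 TPM at T16, a log2 fold change of 1.18 (SE 0.30). GAR1, which helps release the modified RNA, had 64.2, 55.3 and 54.2 TPM at T0 and 333, 152 and 216 TPM at T16 (log2 fold change 2.09, SE 0.38, edgeR adjusted p = 0.0939). NHP2, which binds the guide RNA, was the most abundant of the 4, with 149, 117 and 119.8 TPM at T0 and 243, 198 and 321 TPM at T16. NOP10, a small protein that bridges DKC1 and NHP2, had 28.8, 30.0 and 31.9 TPM at T0 and 60.0, 32.1 and 50.5 TPM at T16. The T16 value of replicate 2 for NOP10 was only just above the T0 range in TPM and within it in log2 CPM. Relative to DKC1 in the same library, GAR1 was higher at T16 (1.35, 0.884 and 1.11 against 0.672, 0.615 and 0.502), NOP10 was lower (0.244, 0.186 and 0.258 against 0.301, 0.334 and 0.295) and NHP2 overlapped. The level of NOP10 rests on 1 transcript model of 3009 bases. At T0 its counts were 1344, 1697 and 1351, beside 1380, 1327 and 1006 for NHP2, so its low TPM depends on that length.

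**Figure D4:**
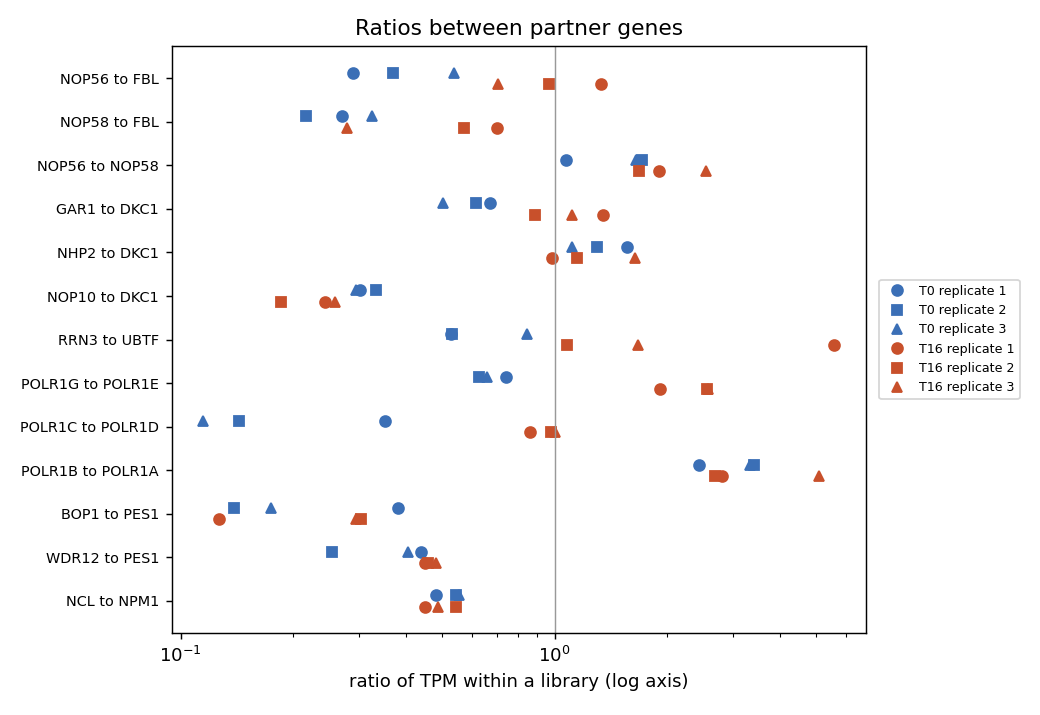
Ratios of TPM between partner genes in each library, on a log axis; blue marks are T0, red marks T16, the shape gives the replicate number, and the grey line marks a ratio of 1. POLR1G to POLR1E, POLR1C to POLR1D, RRN3 to UBTF, NOP56 to FBL and GAR1 to DKC1 are higher in all T16 libraries, NOP10 to DKC1 is lower, and NCL to NPM1 overlaps.

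The abundant nucleolar proteins had the highest summed level of the 7 roles at T0, and all 4 were higher in every cultured pool. NPM1, a histone and ribosome chaperone of the outer nucleolus, was the most abundant of the 36 genes, with 502, 372 and 466 TPM at T0 and 997, 703 and 759.8 TPM at T16 (log2 fold change 0.97, SE 0.34). NCL, which binds the nascent precursor RNA, had 243, 203 and 258 TPM at T0 and 449, 384 and 371 TPM at T16 (log2 fold change 0.88, SE 0.32). Their ratio overlapped between the groups, with NCL at 0.483, 0.546 and 0.554 of NPM1 at T0 and 0.451, 0.545 and 0.488 at T16. The longer NPM1 transcript of 1356 bases held 74.7% to 80.6% of the gene's TPM in every library.

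NOLC1 and GNL3 had larger log2 fold changes than NPM1 and NCL. NOLC1, a chaperone of snoRNP, had 119, 65.1 and 57.2 TPM at T0 and 272, 238 and 194 TPM at T16, with an estimated log2 fold change of 1.61 that became 2.14 when T0 replicate 1 was left out. GNL3, the GTP-binding nucleostemin of proliferating and stem cells, was the least abundant of the group, with 38.7, 31.0 and 41.2 TPM at T0 and 169, 108 and 119 TPM at T16 (log2 fold change 1.93, SE 0.33, edgeR adjusted p = 0.0903).

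All 9 factors of the small subunit had every T16 library above every T0 library in log2 CPM, and 7 of them did in TPM, beside 13.2% and 11.5% of all genes tested. The median log2 fold change was 1.31, and it was 0.91 without T16 replicate 1. WDR43, an early component of the small subunit processome, stood out by size, with 57.5, 54.3 and 60.7 TPM at T0 and 417, 166 and 226 TPM at T16 (log2 fold change 2.32, SE 0.41, edgeR adjusted p = 0.0921). BYSL, needed late for small subunit maturation, had 47.9, 23.8 and 22.9 TPM at T0 and 123, 99.9 and 107 TPM at T16. NOP14, a processome component, had 56.5, 22.5 and 15.5 TPM at T0 and 88.6, 92.8 and 101 TPM at T16. For both BYSL and NOP14 the highest T0 value was in replicate 1, and without that library the log2 fold change went from 1.87 to 2.45 for BYSL and from 1.63 to 2.53 for NOP14.

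RRP9, a protein of the U3 snoRNP, and RRP12, an export factor of pre-ribosomes, had about 2 times the T0 level. RRP9 had 29.5, 30.0 and 42.8 TPM at T0 and 79.7, 63.4 and 69.2 TPM at T16. RRP12 had 32.8, 24.0 and 20.2 TPM at T0 and 57.6, 47.7 and 43.0 TPM at T16. Neither gene overlapped between the groups, with log2 fold changes of 1.18 (SE 0.33) and 1.02 (SE 0.35).

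The processome proteins UTP4, UTP15, UTP20 and HEATR1 act on the early precursor. Among the cultured pools, each of the 4 was highest in T16 replicate 1 and lowest in T16 replicate 3. This order was not particular to them, as NOP58, NCL and PES1 among others had it too. T16 replicate 1 was the highest T16 library for 26 of the 36 genes, and T16 replicate 3 the lowest for 14. UTP4 had 36.5, 48.8 and 69.5 TPM at T0 and 174, 92.7 and 85.1 TPM at T16. UTP15 had 24.1, 21.0 and 18.8 TPM at T0 and 76.7, 48.7 and 27.8 TPM at T16. UTP20, the least abundant of the 36 genes at T0, had 9.98, 7.61 and 6.19 TPM at T0 and 38.4, 16.3 and 9.72 TPM at T16. T16 replicate 3 was therefore inside the T0 range for UTP20 and just above it for UTP15, and without T16 replicate 1 the log2 fold change of UTP20 went from 1.46 to 0.77. HEATR1 had 7.81, 8.66 and 11.3 TPM at T0 and 24.7, 13.1 and 8.78 TPM at T16, from 116 to 374 counts per library. Only 1 of its 4 transcripts in the gene table was in the deposited files, a model of 1087 bases, so these values rest on that model alone, and the estimate of 0.82 (log2 fold change, SE 0.63) dropped to 0.31 on leaving out T16 replicate 1.

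Large subunit factors had the second highest median among the 7 roles, 1.59, with 5 of 6 above in both scales, beside 13.2% and 11.5% of all genes tested. PES1, BOP1 and WDR12 form a complex needed for maturation of the large subunit RNAs. PES1, the most abundant of the 3, had 110.2, 108 and 103 TPM at T0 and 306, 205 and 194 TPM at T16, a log2 fold change of 1.22 (SE 0.31, edgeR adjusted p = 0.144). WDR12 had 48.3, 27.5 and 41.9 TPM at T0 and 138, 93.7 and 93.4 TPM at T16 (log2 fold change 1.54, SE 0.37). BOP1 had 42.1, 15.0 and 18.1 TPM at T0 and 39.0, 62.0 and 57.0 TPM at T16. T0 replicate 1 lay above T16 replicate 1 for BOP1, and its estimate of 1.13 (log2 fold change, SE 0.55) became 1.9 on leaving that library out. The ratio of WDR12 to PES1 spanned 0.451 to 0.481 at T16 and 0.254 to 0.439 at T0, and that of BOP1 to PES1 overlapped between the groups.

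RRS1, NOP2 and NOP16 were higher in all cultured pools. RRS1, which brings the 5S particle into the large subunit, had 43.8, 29.2 and 26.5 TPM at T0 and 178, 105 and 106 TPM at T16 (log2 fold change 2.03, SE 0.40, edgeR adjusted p = 0.107). NOP2, an RNA methyltransferase of the large subunit and a marker of proliferating cells, had 71.7, 55.2 and 55.3 TPM at T0 and 264, 152 and 168 TPM at T16 (log2 fold change 1.76, SE 0.36). NOP16 was almost the same in the 3 T0 libraries, with 106, 99.8 and 107 TPM, and had 319.6, 171 and 394 TPM at T16 (log2 fold change 1.65, SE 0.43).

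Among the cultured pools, T16 replicate 1 ranked highest for 26 of the 36 genes, replicate 3 for 6 and replicate 2 for 4. Over all genes tested, T16 replicate 1 was the highest T16 library for 43.8%. T16 replicate 1 also held the most oocyte marker transcript of the T16 libraries, and the part of oocyte content in the order was not tested. Without T16 replicate 1, 29 of the 36 genes lay above the T0 libraries in log2 CPM, beside 17% of all genes tested without it, and the median log2 fold change was 1.13. Leaving out both T0 replicate 1 and T16 replicate 2, the libraries lowest in oocyte markers, 33 of 36 lay above, beside 26.0% of all genes tested with these 4 libraries, and the median was 1.69. In T0, replicate 1 was the highest for 20 genes and replicate 3 for 15. The same shares over all genes tested were not taken for T0, so these counts are not read as a trait of the list.

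The other genes of the pathway were read from lists of assembly factors, snoRNP proteins, further polymerase I factors and shared polymerase subunits. Of 121 such genes found, 76 lay above and 1 below in log2 CPM, beside 13.2% and 10.6% of all genes, and their median log2 fold change was 0.92. By edgeR 0 of the 121 passed the FDR, and 65 were higher and 0 lower at an unadjusted p under 0.05, beside 8.61% and 5.14% of all genes. DESeq2 called 38 higher and 0 lower, beside 4.06% and 2.96%. The assembly factors of both subunits made up most of these. Among 41 further small subunit factors 29 lay above and 0 below (median 1.13), and among 53 further large subunit factors 37 lay above and 1 below (median 0.97). RIOK2, an ATPase of late small subunit maturation, had 69.0, 61.6 and 55.1 TPM at T0 and 329, 220.4 and 226 TPM at T16, with an edgeR adjusted p of 0.0872. The RNA helicase DDX47 had 58.9 TPM (SD 12.0, n = 3) at T0 and 212 TPM (SD 13.2, n = 3) at T16. For the large subunit, RRP1B had 14.8 TPM (SD 4.67, n = 3) and 64.2 TPM (SD 16.3, n = 3), and DDX56 56.2 TPM (SD 9.86, n = 3) and 155 TPM (SD 14.3, n = 3), in the same order. The exception was the helicase DDX31, named after its values were seen, with 94.7 TPM (SD 8.56, n = 3) at T0 and 65.1 TPM (SD 12.4, n = 3) at T16 (edgeR adjusted p = 0.547).

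Smaller medians were found for the machinery around polymerase I. Of 12 further polymerase I factors, 5 lay above and 0 below, beside 13.2% and 10.6% of all genes tested, with a median log2 fold change of 0.31. In this list the helicase DDX21 had 24.2, 16.7 and 15.9 TPM at T0 and 109, 69.7 and 56.1 TPM at T16 (log2 fold change 2.10, edgeR adjusted p = 0.0921), and NOL11 had 32.2 TPM (SD 11.4, n = 3) at T0 and 79.0 TPM (SD 13.3, n = 3) at T16. Of 10 other snoRNP proteins and assembly factors, 4 lay above and 0 below (median 0.42), among them ZNHIT6 with 13.4 and 32.3 TPM and the ATPase RUVBL1 with 144 and 226 TPM on average at T0 and T16. The 5 subunits common to polymerases I, II and III had a median of 0.26, with POLR2K above (100.5 TPM, SD 26.8, at T0 and 229 TPM, SD 78.5, at T16, n = 3 each) and POLR2E overlapping (180.0 TPM, SD 31.6, and 223 TPM, SD 26.4). Of 12 genes of the RNA exosome, which trims precursor ends, and its cofactors, 4 lay above and 0 below (median 0.34). These were the exosome subunits EXOSC2 and EXOSC3 and the cofactors MTREX and C1D. EXOSC2 and C1D were named after their values were seen. EXOSC3 had 57.0 and 115 TPM and MTREX 20.5 and 35.8 TPM on average at T0 and T16.

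Subunits of the other polymerases were measured beside those of polymerase I. Of 10 polymerase III subunits 2 lay above and 1 below, near the 13.2% and 10.6% of all genes tested, with a median log2 fold change of 0.33. POLR3D had 64.5 TPM (SD 14.3, n = 3) at T0 and 111 TPM (SD 41.2, n = 3) at T16. POLR3GL had 24.8, 21.5 and 23.7 TPM at T0 and 5.05, 13.3 and 4.56 TPM at T16, lower in every cultured pool (log2 fold change -1.73, edgeR adjusted p = 0.218, DESeq2 adjusted p = 0.0283). Of 7 polymerase II subunits 2 lay above and 1 below, beside the same shares of all genes, with a median of 0.65. The gene below was POLR2G, named after its values were seen, with 336 TPM (SD 35.7, n = 3) at T0 and 265 TPM (SD 20.4, n = 3) at T16. POLR2C had 124 TPM (SD 7.36, n = 3) and 303 TPM (SD 20.0, n = 3), and POLR2B 32.8 and 62.6 TPM on average. The difference between these lists and the polymerase I subunits (median 0.79) was not tested.

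**Figure D5:**
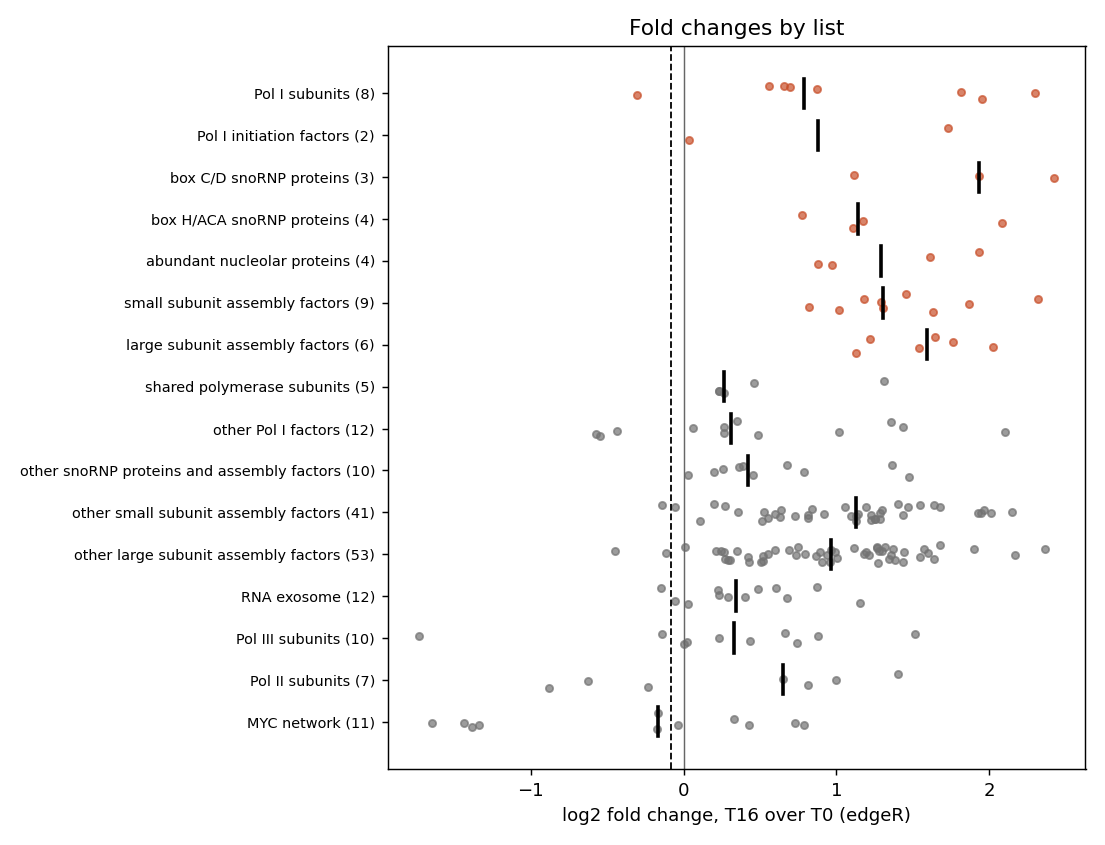
Log2 fold change of each gene, T16 over T0, by list, with the number of genes tested in brackets; red points are the 36 genes, grey points the other lists, black bars the median of each list, and the dashed line the median of all genes tested. The assembly factors of both subunits have medians of 0.97 to 1.59, the list of further polymerase I factors 0.31 and the MYC network -0.17.

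MYC, a transcription factor known to act on many ribosome biogenesis genes, did not stand apart at transcript level. It had 104, 40.8 and 72.3 TPM at T0 and 71.1, 51.8 and 59.8 TPM at T16, with all T16 values inside the T0 range (log2 fold change -0.17, SE 0.45, edgeR adjusted p = 0.916). Its partner MAX had 46.4 TPM (SD 10.9, n = 3) and 58.4 TPM (SD 15.9, n = 3), and MYCN 6.65 and 8.22 TPM on average, both overlapping. Of the 11 genes of the MYC network 2 lay above and 4 below in log2 CPM, beside 13.2% and 10.6% of all genes tested, and the median log2 fold change was -0.17. MXD1, an antagonist of MYC, lay above in log2 CPM, but its groups overlapped in TPM, with 8.19, 13.7 and 17 TPM at T0 and 18.1, 29.1 and 16.4 TPM at T16. The antagonist MXI1 lay below, with 29.5, 60.7 and 61.7 TPM at T0 and 30.3, 11.6 and 10.7 TPM at T16 (edgeR adjusted p = 0.217), although T0 replicate 1 was under T16 replicate 1 in TPM. The other genes below were MYCL, MXD4 and MNT, named after their values were seen. All were low, with mean TPM at T0 and T16 of 4.96 and 1.68 for MYCL, 8.18 and 2.95 for MXD4, and 0.709 and 0.191 for MNT. Their edgeR adjusted p were 0.468, 0.505 and 0.576 in this order.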

How the data were processed

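Pools of bovine PMF, 3 at T0 and 3 at T16, were sequenced from low-input cDNA. The authors trimmed reads and quantified them with Salmon against the ARS-UCD1.3 transcriptome. The deposited files give, per transcript, an estimated count, a TPM value and a length. For each library, estimated counts and TPM of 50205 of 76123 transcripts were summed to 23704 RefSeq gene symbols by accession without version. Transcripts left unmatched held 9.7% to 10.9% of counts.

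Gene sums were rounded and tested with edgeR 4.0.16 (quasi-likelihood, TMM, at least 10 counts in at least 3 libraries, Benjamini-Hochberg over 14639 genes, FDR 0.05) on all 6 libraries without covariates. Standard errors (SE) were derived from each log2 fold change and the F statistic of its test. The scripts were tested on simulated data. DESeq2 1.42.0 was the alternative tool. Other alternatives changed the size factors, the count filter, transcript length offsets, the transcripts summed, the replicate block and the libraries included. The members and all lists were chosen with earlier results of these data known. Every member was named, and of each other pathway list the 2 genes of smallest edgeR p. Replicates are pools, and p-values measure the spread between pools. No columns of other samples were present.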

Additional observations from a re-analysis of the deposited data

How the results depend on the processing

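With DESeq2, 594 genes were past the FDR higher and 433 lower, and 18 of the 36 genes were higher, each with the same sign as in edgeR. Deviations from the group means did not follow the replicate numbers. They correlated at -0.445, -0.121 and -0.00469 between same-numbered libraries, and no library had its highest correlation with its own number. These correlations cannot tell whether same-numbered pools shared animals, since cell makeup also differed between the libraries. With the replicate number as a block, edgeR called 0 genes higher and 0 lower, with 1385 at an unadjusted p under 0.05. Genes called lower were 4 without a count filter, 2 with at least 50 counts and 2 with mRNA transcripts only. Leaving out 1 library at a time, edgeR called 0 to 2 genes higher and 0 to 1 lower (1038 to 2379 at an unadjusted p under 0.05), and 0 of the 36. The count of the 36 lying below the T0 libraries was 0 to 1 in these fits, reaching 1 without T0 replicate 1 or T16 replicate 3. Their median log2 fold change was 1.13 to 1.62, highest without T0 replicate 1. By role it was 0.60 to 1.19 for polymerase I subunits, 0.91 to 1.52 for small subunit factors, 1.38 to 1.87 for large subunit factors and 1.09 to 1.62 for the abundant nucleolar proteins. Without T0 replicate 1 and T16 replicate 2 together, edgeR called 0 genes higher and 0 lower, with 2263 at an unadjusted p under 0.05. In that fit 1 of the 36 lay below, and the medians were 1.69 for all 36, 1.73 for abundant nucleolar proteins, 1.56 for small subunit factors and 2.01 for large subunit factors. Across the alternatives that kept all libraries, 28 to 30 of the 36 lay above and the median was 1.21 to 1.31. UBTF turned negative with DESeq2 (-0.0214), the replicate block (-0.0802), DESeq2 size factors (-0.0214), no count filter (-0.0183), at least 50 counts (-0.0393), mRNA transcripts only (-0.0245) and without T0 replicate 1 and T16 replicate 2 (-0.27). It ran from -0.52 to 0.34 when 1 library was left out. Of 504 values of the 36 genes under 14 alternatives these 10, all of UBTF, reversed, and the causes were not tested.

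Depth was not low for most of the 36 genes, with HEATR1 the least counted at 116. With 3 pools per group, the spread between pools sets the precision. The study's methods describe pools of follicles as biological replicates, but the sources used here do not say which animals went into each pool. They do not give the culture conditions either. Transcripts without a gene symbol in the reference table were not analysed, and ribosomal RNA was not measured.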
